A study of Mus musculus with 6 samples.

Results

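The mouse Schlafen genes are a family of growth regulatory genes that lie next to each other on chromosome 11. All 8 members of the family named here (Slfn1, Slfn2, Slfn3, Slfn4, Slfn5, Slfn8, Slfn9 and Slfn14) were among the 27179 genes measured, and 6 of the 8 had a mean of at least 1 RPKM (reads divided by transcript length and sequencing depth), the level asked of a gene before it was tested. The family was selected on measured values, since Slfn1 had reads only in the WT-labelled libraries. The values of Slfn1 are therefore given as a description with no test, and its neighbours are compared with it.

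RNA was measured in cells sorted as YFP+Mac-1+c-Kit+ in both groups. This gate enriches leukemia-initiating cells (LICs), the bone marrow cells that can transfer the leukemia, and does not hold them alone. Lin- fetal liver cells from Asic3+/+ (WT) or Asic3-/- (Asic3-null) mice had received a retrovirus carrying MLL-AF9, IRES and YFP, and were transplanted into irradiated C57BL/6 recipients. The labels give the C57BL/6 strain and an age of 8 weeks for all 6 samples, with 3 Asic3-null-labelled and 3 WT-labelled libraries. Because the fusion gene came from a virus in both groups, the comparison is between 2 leukemias and not between normal tissues. Nothing in the labels says which library came from which donor or recipient, so p-values measure the spread between these libraries, which may be technical.

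Several facts about the libraries bear on every value below. The library sizes lay between 1947168 and 2381861 reads, so a gene at a few RPKM rests on few reads. Asic3, the targeted gene, ran against the labels, with 9.12, 4.11 and 6.58 RPKM in the Asic3-null-labelled libraries and 1.22, 1.85 and 0.435 RPKM in WT-labelled ones. Where along Asic3 the reads lie was not analysed here, and whether labels were exchanged was not tested. An exchange would turn every direction below. Differences are the Asic3-null label minus the WT label, and a gene called lower or higher is so in the Asic3-null-labelled libraries. Xist, the RNA of the inactive X chromosome, was at 58.0 ± 12.9 RPKM (SD, n = 3) in the Asic3-null-labelled libraries and 0.0358 ± 0.0187 RPKM (SD, n = 3) in WT-labelled ones, and the Y-linked genes Ddx3y, Eif2s3y, Kdm5d and Uty were listed at 0 in the former, so sex and genotype label cannot be told apart. The 10 neutrophil granule markers summed to 238 to 375 RPKM in the former and 3900 to 4340 RPKM in the latter, and Itgam, which encodes the Mac-1 chain of the sort, averaged 14.0 and 76.8 RPKM. In RNA from sorted populations, fewer cells of a type and less RNA per cell cannot be told apart.

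Schlafen proteins share an N-terminal core and take their name from the German word for sleeping, because the first members were found to rise as developing T cells became quiescent and to slow cell growth when overexpressed. Slfn1 and Slfn2 are the shortest proteins, Slfn3 and Slfn4 are of intermediate length, and Slfn5, Slfn8, Slfn9 and Slfn14 add a helicase-like C-terminal part. Interferons induce many of them, and in myeloid cells Slfn2 and Slfn4 are known as genes of activated monocytes and macrophages.

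The sequence before each gene's start was read first, because the short and long members differed there in a way that the choice of genes did not use. The sequences are from RefSeq on GRCm38.p6, written 5′ to 3′ on the strand of the gene, and all 8 members had a window. For Slfn1 and Slfn2, the members whose levels the results turn on, the whole 250 bases before the start are shown, chr11:83116570-83116819 and chr11:83064862-83065111, both on the plus strand. Capitals mark the letters ACTTCCTGG, which hold the core of the site that ETS factors bind.
Slfn1: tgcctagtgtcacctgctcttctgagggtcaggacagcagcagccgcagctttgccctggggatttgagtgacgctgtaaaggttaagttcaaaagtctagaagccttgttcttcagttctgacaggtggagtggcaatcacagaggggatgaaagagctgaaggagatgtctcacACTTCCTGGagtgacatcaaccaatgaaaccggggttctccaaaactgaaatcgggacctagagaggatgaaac
Slfn2: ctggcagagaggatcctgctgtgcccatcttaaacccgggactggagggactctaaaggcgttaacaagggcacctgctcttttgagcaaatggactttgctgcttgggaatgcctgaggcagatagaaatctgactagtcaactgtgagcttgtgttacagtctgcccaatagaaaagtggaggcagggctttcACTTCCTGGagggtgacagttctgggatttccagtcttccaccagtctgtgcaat

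The same 9 letters stood before Slfn3 (chr11:83191278-83191307, plus strand) and Slfn4 (chr11:83175103-83175132, plus strand), shown with the bases around them.
Slfn3: ggatgacagaACTTCCTGGgggagggactc
Slfn4: ttccggttatACTTCCTGGagtgacgaaat

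The capitals began 74 bases before the start in Slfn1, 55 in Slfn2, 42 in Slfn3 and 73 in Slfn4. Among 32851 promoter windows of the same length, 0.7% held these letters on either strand, and of the 8 members 4 did, all of them among the shorter proteins. This string was chosen after the promoters had been read, and neighbouring copies of a duplicated gene share sequence by descent, so the match describes these promoters and names no factor. In Slfn1 and Slfn4 the letters were followed by the same agtgac.

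The long members shared a different string. The core of the interferon-stimulated response element, GAAANNGAA on either strand, stood before Slfn5, Slfn8, Slfn9 and Slfn14 and in 7.13% of all windows. It was not in the windows of Slfn1 to Slfn4, which says nothing about sites elsewhere. Capitals mark it below, in Slfn8 and Slfn9 as it reads on the opposite strand, at chr11:82951937-82951966 (plus strand, Slfn5), chr11:83020838-83020867 (minus strand, Slfn8) and chr11:82991855-82991884 (minus strand, Slfn9). The Slfn5 window belongs to a transcript that starts inside the gene's outer limits, and the Slfn5 match shown runs into a row of a's. Slfn8 and Slfn9 are neighbours and may share theirs by descent. The matches are therefore not read as 4 separate occurrences, and they name no factor.
Slfn5: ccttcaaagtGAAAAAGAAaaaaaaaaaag
Slfn8: tttgagcagtTTCGTTTTCcccaaaagcaa
Slfn9: tccgagcagtTTCGTTTTCccaaaaacaag

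Slfn8 and Slfn9, which lie side by side, carried the element in nearly the same surroundings, preceded by gagcagt in both. The core of a STAT site, TTCNNNGAA, was in the window of 0 members and 7.02% of all windows, and GAGGAAGT, a PU.1-type ETS site, was in 0 members and 2.44% of all windows. The first 7 letters of ACTTCCTGG are those that GAGGAAGT gives on its opposite strand, without its last letter.

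Slfn1 (Entrez 20555, chr11:83116820-83122670), a growth inhibitory gene first described in thymocytes, was listed at 0 RPKM in all 3 libraries labelled Asic3-null. It stood at 5.38, 3.32 and 1.59 RPKM in the WT-labelled libraries, a mean of 3.43 ± 1.90 (SD, n = 3). These values rest on 21, 12 and 7 reads, 40 in all, against 0 reads in the other group, where 1 read would have been 0.226 to 0.233 RPKM. With a floor of 3 reads over the group put in place of the 0, Slfn1 was 14.6-fold lower in the Asic3-null-labelled libraries, scaled to library size. The 3 is a chosen floor with no confidence level. The counting error of the 40 WT-labelled reads and the spread between libraries are left out. Since the family was selected for this 0, the figure is a description. It ran from 9.69 to 19.1 when any 1 library was left out, lowest without replicate 2 of the Asic3-null label. The level within the WT label was itself uneven, with the highest library having 3 times the reads of the lowest.

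The member nearest to the pattern of Slfn1 without meeting it was Slfn5, with reads in 1 of the 3 libraries labelled Asic3-null. It was also under 1 RPKM in replicates 1 and 3 of the WT label, at 0.159 and 0.494 RPKM. Over the whole table, 16 genes (0.0589%) were at 0 in every library labelled Asic3-null and at 1 RPKM or more in every library labelled WT, and the converse held for 6. The count of 16 rose to 31 without replicate 2 of the Asic3-null label and to 30 without replicate 3 of the WT label. Slfn1 was on chromosome 11, which none of the other genes of known position was (3 of the 16 had none), and it ranked 8 of 16 by its mean in the WT-labelled libraries. The genes above it were Eif2s3y, Ddx3y, Psma8, Ighj2, Kdm5d, 1700030C10Rik and Xlr4c, and the next 2 below it were Entrez 100504475 and Cryba4. Of the 16, 4 were Y-linked (Eif2s3y, Ddx3y, Kdm5d and Uty). Some rested on very few reads, such as Ighj2 on 1 in each WT-labelled library and Entrez 100504475 on 1, 2 and 3. Psma8, a proteasome subunit of the testis, stood at 19.7, 18.2 and 18.7 RPKM and 1700030C10Rik at 2.75, 4.16 and 3.67 RPKM in the WT-labelled libraries.

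Slfn2 (Entrez 20556, chr11:83065112-83070678) was the member with the highest level in every library and, among the tested members other than Slfn1, the only one that passed the test. Slfn2 maintains quiescence in T cells and monocytes and protects transfer RNAs from cleavage. It stood at 30.1, 13.1 and 13.6 RPKM in the Asic3-null-labelled libraries and at 115, 66.0 and 91.1 RPKM in WT-labelled ones. The lowest library labelled WT was above the highest labelled Asic3-null, and the group means were 18.9 ± 9.68 and 90.9 ± 24.7 RPKM (SD, n = 3), a 4.80-fold difference. On the log2(RPKM + 1) scale Slfn2 fell by 2.27 (SE 0.32, 95% interval -2.99 to -1.55; limma, adjusted p = 0.00633 over 12037 genes). The values rest on 116, 52 and 53 reads against 404, 214 and 359, so counting error is small beside the difference. Leaving out any 1 library kept Slfn2 past the threshold of 0.05. The granule genes and Itgam moved the same way, and their part in the fall of Slfn2 was not tested.

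Of the 5 tested members other than Slfn1, 1 was called lower (Slfn2) and 0 were called higher, where over all tested genes 2.82% were called lower and 0.523% higher. At an unadjusted p under 0.05 the count of members that were higher was also 0, where 774 of the 12037 genes were, so 0 of 5 is near the background. Limma-voom, a fit on the reads recovered from the RPKM values, also called 1 member, and it called 451 genes lower and 92 higher over the table. The groups did not overlap for 2 of the 5, Slfn2 and Slfn4, beside 11.4% of all tested genes with the same order of groups. A single member cannot reach a two-sided p under 0.10 in an exact permutation test of 3 libraries against 3.

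**Figure D1:**
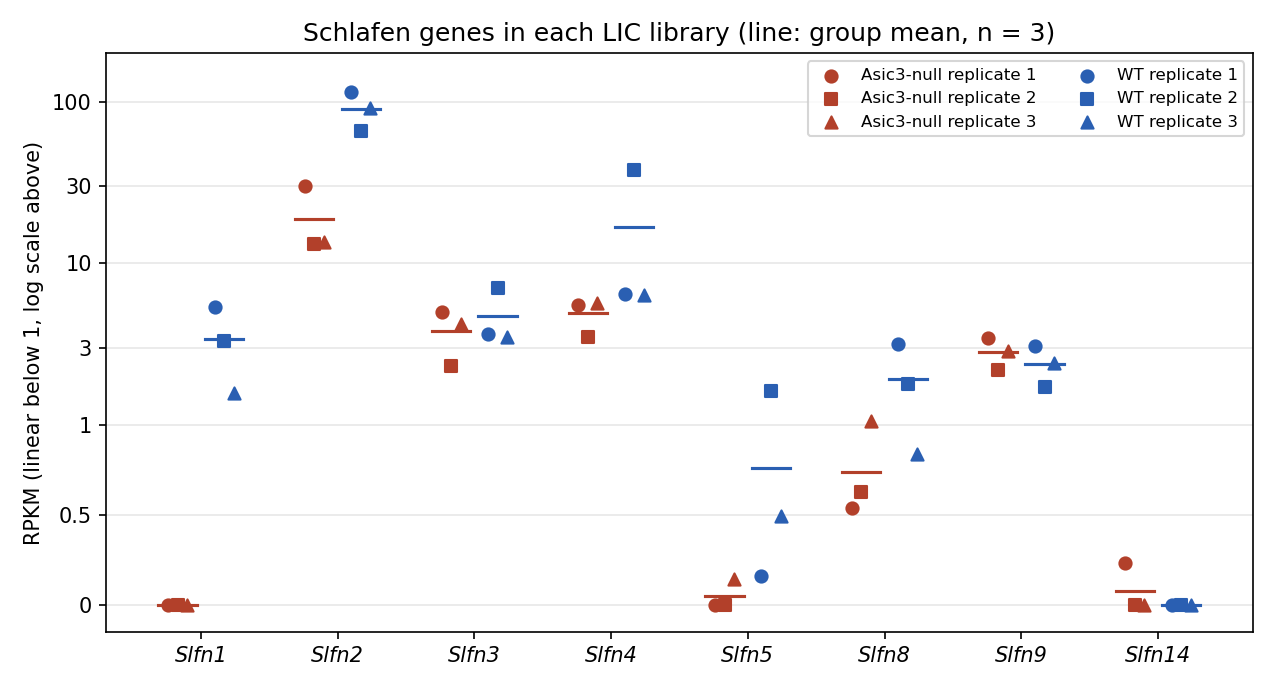
RPKM of the 8 Schlafen genes in each library, on a scale that is linear below 1 and logarithmic above. Points are libraries, with red for the Asic3-null label and blue for the WT label, and horizontal lines are group means of 3 libraries. Slfn2 separates the groups with 13.1 to 30.1 against 66.0 to 115 RPKM, Slfn1 is at 0 in all red points, and the high mean of Slfn4 under the WT label comes from replicate 2 at 37.6 RPKM.

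The intermediate members Slfn4 and Slfn3 were not called. Slfn4 (Entrez 20558, chr11:83175172-83190216), a gene of myeloid cells that Toll-like receptor and interferon signals induce, stood at 5.57, 3.50 and 5.70 RPKM in the Asic3-null-labelled libraries and at 6.49, 37.6 and 6.40 RPKM in WT-labelled ones. The groups did not overlap, but the replicates 1 and 3 labelled WT were within 1 RPKM of the highest library labelled Asic3-null, and replicate 2 was 5.80-fold above the higher of the other 2. Slfn4 differed by -1.14 (SE 0.57, 95% interval -2.44 to 0.15; limma, adjusted p = 0.369), an interval that includes the difference of Slfn2, and by -0.35 without WT replicate 2. A 3-fold excess of that library over both others of its label was found for 64 of the 12037 tested genes (0.532%), and for 40 to 112 genes in each of the 5 other libraries.

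Slfn3 (Entrez 20557, chr11:83191330-83215154), described in T cells and gut epithelium, lies directly beside Slfn4. It stood at 4.99, 2.31 and 4.22 RPKM in the Asic3-null-labelled libraries and at 3.67, 7.07 and 3.49 RPKM in WT-labelled ones, from 10 to 25 reads a library. The groups overlapped, and the highest value was again in WT replicate 2. The difference was -0.24 (SE 0.32, 95% interval -0.96 to 0.49; limma, adjusted p = 0.767), an interval that leaves out a change as large as that of Slfn2. Slfn3 and Slfn4 are close paralogs, and how reads that match both were counted is not given in the sources used here, so their split is uncertain.

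Of the long members, Slfn9 and Slfn8 were tested. Slfn9 (Entrez 237886, chr11:82974316-82991830) stood at 3.47, 2.18 and 2.87 RPKM in the Asic3-null-labelled libraries and at 3.08, 1.73 and 2.41 RPKM in WT-labelled ones, from 13 to 31 reads a library. The groups overlapped almost fully, with a difference of 0.18 (SE 0.26, 95% interval -0.42 to 0.78; limma, adjusted p = 0.790). Slfn8 (Entrez 276950, chr11:83002125-83020810) is expressed in lymphoid and myeloid cells and has the same helicase-like architecture. It stood at 0.538, 0.628 and 1.06 RPKM in the Asic3-null-labelled libraries and at 3.20, 1.79 and 0.842 RPKM in WT-labelled ones. Its groups overlapped through WT replicate 3, and the difference of -0.69 (SE 0.36, 95% interval -1.50 to 0.13; limma, adjusted p = 0.392) rests on 5 to 10 reads against 8 to 27. Slfn8, like Slfn1, met the level for a test only through the WT-labelled libraries. Slfn10-ps, a related pseudogene next to Slfn8, stood at 0.740, 0.360 and 0.365 RPKM against 1.22, 0.733 and 0.723 RPKM, and it may share reads with Slfn8 and Slfn9.

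Slfn5 and Slfn14 did not reach the level for a test. Slfn5 (Entrez 327978, chr11:82951349-82964850), an interferon-induced gene, stood at 0, 0 and 0.142 RPKM in the Asic3-null-labelled libraries and at 0.159, 1.63 and 0.494 RPKM in WT-labelled ones. Those values are 0, 0 and 2 reads against 2, 19 and 7, so the closest libraries of the groups held the same number of reads, and WT replicate 2 was 3.30-fold above the next. With every measured gene kept, the difference was -0.66 (SE 0.28; limma, adjusted p = 0.362). The antisense gene Slfn5os overlaps Slfn5, and the library kit did not keep strand, so reads of the pair cannot be told apart. Slfn14 (Entrez 237890, chr11:83275110-83286726), an endoribonuclease gene of platelets and reticulocytes, was at 0.233 RPKM in replicate 1 labelled Asic3-null and at 0 in the other 5 libraries. Slfnl1, a distant relative on chromosome 4, was at 0.242 RPKM in replicate 3 labelled Asic3-null and at 0 elsewhere.

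The makeup of the family was read as shares of its summed RPKM, without a test. The 8 members summed to 44.9, 21.7 and 27.6 RPKM in the Asic3-null-labelled libraries and to 137, 119 and 106 RPKM in WT-labelled ones. Slfn2 made up 67.0%, 60.4% and 49.2% of the sum in the former and 84.0%, 55.4% and 85.7% in the latter, so the shares overlapped through WT replicate 2, where Slfn4 made up 31.6%. Slfn9 took 7.73% to 10.4% of the sum in the Asic3-null-labelled libraries and 1.45% to 2.27% in WT-labelled ones. With Slfn2 left out, the sum of the others was 12.5 ± 3.36 and 30.1 ± 20.2 RPKM (SD, n = 3), the latter with 53.2 RPKM in its highest library and 15.2 RPKM in its lowest.

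Ratios between members of 1 library do not depend on library size. Slfn2 over Slfn9 was 8.67, 6.03 and 4.72 in the Asic3-null-labelled libraries and 37.4, 38.1 and 37.8 in WT-labelled ones. The groups did not overlap. Slfn9 rests on 25, 13 and 22 reads in the latter, whose counting error is wider than the spread of these 3 ratios, so their closeness is not read as constancy. Slfn2 over Slfn3 was 6.03, 5.68 and 3.21 in the former and 31.5, 9.34 and 26.1 in the latter, again without overlap. Slfn2 over Slfn4 was 5.41, 3.75 and 2.38 in the former and 17.8, 1.76 and 14.2 in the latter, where WT replicate 2 fell below every library of the other label. These partners were set beside Slfn2 after their values were seen, and the ratios are a description.

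**Figure D2:**
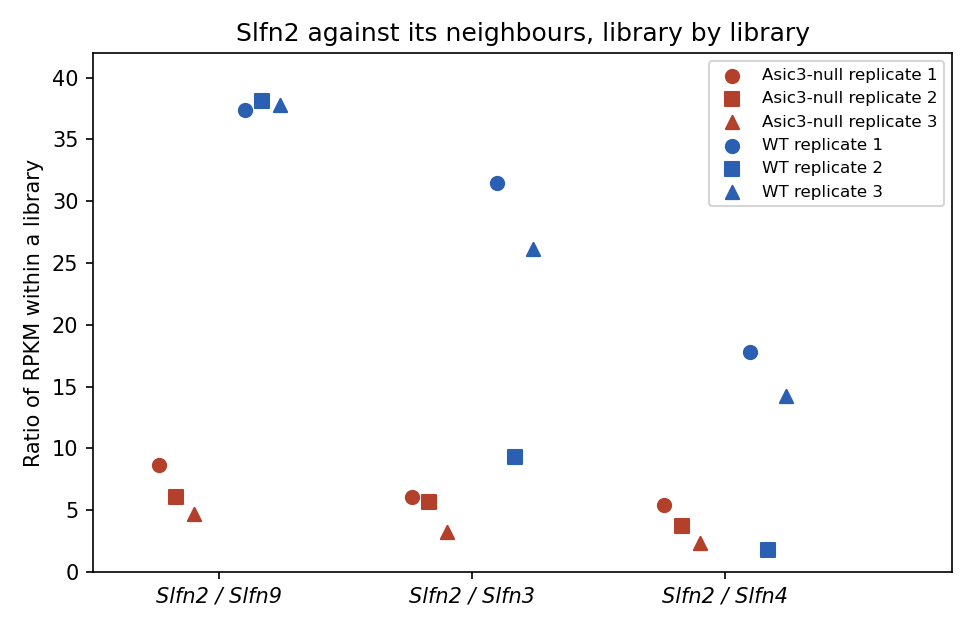
Ratio of the RPKM of Slfn2 to that of Slfn9, Slfn3 and Slfn4 within each library, on a linear axis from 0. The 3 libraries labelled WT lie at 37.4 to 38.1 for Slfn9 and above the Asic3-null-labelled libraries for Slfn3, and WT replicate 2 drops to 1.76 for Slfn4.

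Genes that share the region but not the family were compared next. The members span 335.4 kb, from chr11:82951349 to 83286726, and 48 other genes start within 1 Mb of either end, of which 27 were tested. Of the 27, 4 were called lower in the Asic3-null-labelled libraries and 0 higher, beside the 2.82% and 0.523% over all tested genes. Limma-voom also called 4 lower and 0 higher, where it called 451 lower and 92 higher over all tested genes. At an unadjusted p under 0.05, 5 of the 27 were lower and 1 higher, where 1138 of all 12037 tested genes were lower and 774 higher. The median difference of the 27 was -0.04, against 0.03 over all tested genes.

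The genes nearest to the cluster were not called. Within its span lies AI662270, a long noncoding RNA gene that starts 106.8 kb beyond the start of Slfn1, and it stood at 132, 160 and 157 RPKM in the Asic3-null-labelled libraries and 135, 145 and 157 RPKM in WT-labelled ones. With 397 to 538 reads a library, its difference was 0.04 (SE 0.13; limma, adjusted p = 0.921). On the near side of Slfn5, Nle1, a ribosome assembly gene, averaged 44.0 ± 11.5 against 30.6 ± 5.76 RPKM (SD, n = 3), a difference of 0.50 (limma, adjusted p = 0.296), and Rad51d, a gene of homologous recombination, differed by -0.43 (limma, adjusted p = 0.425). Beyond Slfn14, the overlapping noncoding genes AA465934 and AI450353 differed by 1.00 and -0.39 (limma, adjusted p = 0.387 and 0.520), from 1 to 15 and 3 to 6 reads a library.

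The 4 called genes lay farther out. Ccl6, a chemokine gene of myeloid cells that starts 471.1 kb from Slfn1, fell by 2.32 (limma, adjusted p = 0.000631), from 85.4 ± 22.1 RPKM in the WT-labelled libraries to 16.1 ± 2.41 RPKM (SD, n = 3). Ccl2, the chemokine that draws monocytes, lies on the other side and fell by 2.84 (limma, adjusted p = 0.000847). Wfdc17 and Wfdc21, which encode small secreted proteins with a whey acidic protein domain, fell by 1.93 and 3.66 (limma, adjusted p = 0.00517 and 0.00107). Wfdc21 met the level for a test only through the WT-labelled libraries, and with no filter on low values the genes called lower in the window were again 4 in number.

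**Figure D3:**
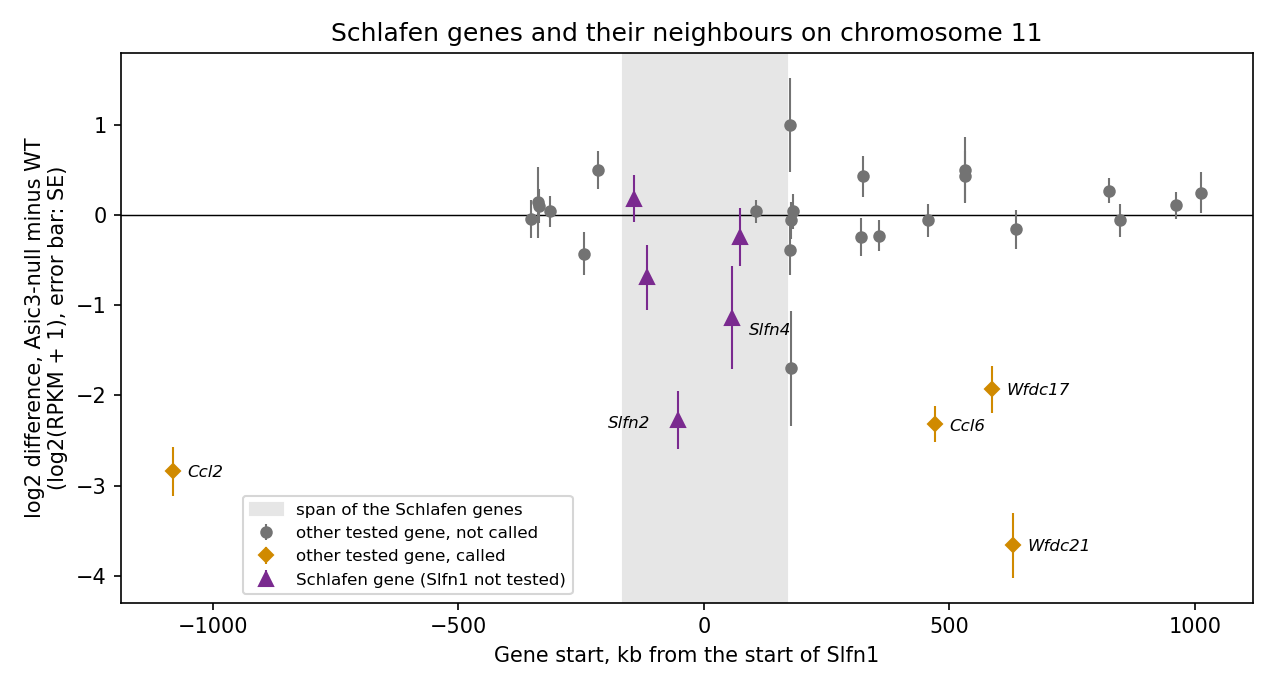
Difference between labels on the log2(RPKM + 1) scale, Asic3-null minus WT, against the distance in kb of each gene's start from the start of Slfn1. Triangles are tested Schlafen genes, diamonds other genes past the limma threshold, circles other tested genes, bars standard errors, and the grey band the 335.4 kb of the cluster. Slfn2 lies at -2.27 while AI662270, within the band, lies at 0.04, and the called neighbours Ccl2, Ccl6, Wfdc17 and Wfdc21 are all outside it.

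Interferon signals induce Schlafen genes, so a list of 66 genes of the interferon receptor, its STAT and IRF factors and their targets was set beside them. Of the list, 49 were tested, 4 were listed at 0 in every library, and 4 of the 49 were called lower and 0 higher in the Asic3-null-labelled libraries, beside 2.82% and 0.523% of all tested genes. At an unadjusted p under 0.05, 15 of the 49 were lower and 0 higher, where 1138 of all 12037 tested genes were lower and 774 higher. Limma-voom also called 4 of the list lower and 0 higher. The difference was below 0 for 41 of the 49, with a median of -0.36, while over all tested genes the median was 0.03 and 5471 of 12037 were below 0. The calls were not stable, since leaving out 1 library gave a count of 0 or 1. It was 0 without replicate 1 or 3 of the Asic3-null label, and also without replicate 1 or 2 of the WT label.

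The 4 genes were effectors of the response. Ifi47, an interferon-induced GTPase, stood at 3.36, 5.27 and 4.33 RPKM in the Asic3-null-labelled libraries and 9.67, 12.6 and 8.84 RPKM in WT-labelled ones, a difference of -1.10 (SE 0.22; limma, adjusted p = 0.0315). Mx1, an antiviral GTPase, stood at 0.961, 1.40 and 1.58 against 5.64, 4.95 and 3.29 RPKM, a difference of -1.27 (SE 0.27; limma, adjusted p = 0.0383). Epsti1 stood at 6.70, 7.59 and 7.34 against 13.5, 17.7 and 12 RPKM (limma, adjusted p = 0.0392). For each of them the lowest library labelled WT was above the highest labelled Asic3-null. Zbp1, a sensor of Z-form nucleic acids, averaged 0.721 ± 0.106 against 2.82 ± 0.236 RPKM (SD, n = 3; limma, adjusted p = 0.0453), from 3 or 4 reads against 12 to 14. Zbp1 met the level for a test only through the WT-labelled libraries. With no filter on low values it was the one of these 4 still called (limma, adjusted p = 0.0349).

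WT replicate 2, in which Slfn3, Slfn4 and Slfn5 were highest, was also the highest of the WT label for 25 of the 49 interferon genes (51.0%), against 29.2% of all tested genes. Within the WT label, Slfn1, Slfn2, Slfn8 and Slfn9 were highest in replicate 1, which was the highest of its label for 16 of the 49 interferon genes and for 4810 of all 12037 tested genes. Of the Asic3-null-labelled libraries, replicate 3 was the highest for 23 of the 49 (46.9%), against 30.1% of all tested genes. The part of these library differences in the values of Slfn4 and Slfn5 was not tested.

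Schlafen genes are also known from lymphocytes, and markers of other cells were read beside them. Of 14 T cell markers, 10 were under 1 RPKM in every library, 3 of them at 0, and their sum ran from 5.24 to 7.70 RPKM in the Asic3-null-labelled libraries and from 7.22 to 10.9 RPKM in WT-labelled ones. Of 8 NK cell markers 5 were at 0 in every library, and of 9 B cell markers 2 were, with sums of 40.2 to 47.8 and 44.8 to 50.5 RPKM for the latter list. The number of T, NK or B cell markers called in either direction was 0, with 2 of each list tested. The 10 macrophage markers summed to 165 to 197 RPKM in the Asic3-null-labelled libraries and 284 to 326 RPKM in WT-labelled ones, with 2 of 6 tested called lower, and all 10 neutrophil granule markers were tested and called lower, beside the 2.82% of all tested genes. Erythroid markers summed to 0.972 to 2.41 and 3.07 to 10.8 RPKM, and megakaryocyte markers to 12.6 to 23.9 and 13.0 to 17.7 RPKM with 1 of 2 tested called lower. Kit, the other marker of the sort, averaged 17.6 ± 3.00 and 11.1 ± 3.60 RPKM (SD, n = 3; limma, adjusted p = 0.219). The part of these cell type markers in the differences of Slfn1 and Slfn2 was not tested.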

How the data were processed

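Total RNA of the sorted, LIC-enriched cells from 3 samples labelled Asic3-null and 3 labelled WT was sequenced with a TruSeq RNA v2 kit. The submitters' processing notes name CASAVA 1.8.2, TopHat2 2.0.12 and the GRCm38 build. The deposited values are RPKM, made by the authors, and the counting tool and annotation are not given in the sources used here. Genes are listed by Entrez number, and symbols and positions came from RefSeq GRCm38.p6 (25275 of 27179) and GENCODE M21 (18).

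Whole reads could be recovered from the RPKM values for all 16825 genes above 0, since gene lengths are whole bases. They made up 99.616% to 99.653% of the library sizes, so the counts of some genes may be too low. The recovered length of Slfn14 did not match its exon length, and its reads are not given. Library sizes were 1947168 to 2381861 reads, and the floor of 3 reads for Slfn1 leaves out the counting error of its WT-labelled reads. Genes with a mean of at least 1 RPKM (12037) were compared on the log2(RPKM + 1) scale in R 4.3.3 by limma 3.58.1 (intensity trend, two-sided, label as the only term, Benjamini-Hochberg over all tested genes, threshold 0.05), so differences of low genes are understated. The fit was tested on simulated data. Exact permutation tests of single genes used scipy 1.17.1.

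The members and lists were chosen with earlier results of these data known. Named were the 8 members, Slfn10-ps and Slfnl1, the 10 genes with the pattern of Slfn1 with the highest WT means, the 5 lowest p of each direction among called interferon genes, the 2 tested genes nearest on each side of the cluster and each called within 1 Mb, and the sex-linked genes and Asic3. The alternatives were other filters, pseudocounts, scalings and models, the replicate number as a block, and leaving out each library. Motifs were searched as letters in the 250 bases before the start. A planned comparison of protein sequences was not made.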

Additional observations from a re-analysis of the deposited data

How the results depend on the processing

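Slfn2 stayed past the threshold in the same direction under all 14 alternatives, with differences of -2.64 to -2.07 and limma adjusted p of 0.000735 to 0.0466. Slfn4 stayed short of it under all 14 (-1.54 to -0.35, adjusted p 0.3 to 0.615), as did Slfn8 (-1.17 to -0.39) and Slfn9 (0.03 to 0.32) under the 13 that tested them. Slfn3 ran from -0.41 to 0.04 when a library was left out, and it turned above 0 without replicate 2 of the Asic3-null label (0.02) or replicate 2 of the WT label (0.04). The fitted value of Slfn1, which depends on the pseudocount, ran from -4.98 to -1.74. The genes called over the table were 403, with 172 to 258 when a library was left out and 246 with the replicate block. The numbers did not pair the samples, with correlations of the deviations of 0.059, -0.059 and -0.123, and the block changed no call of a Schlafen gene. Interferon genes called were 4, with 1 with no filter on low values, 2 at a mean RPKM of at least 5, 1 with the replicate block, and 0 to 1 when a library was left out. Genes with the pattern of Slfn1 were 16, with 73 for any value above 0 in each library labelled WT and 18 to 31 when a library was left out, the highest without replicate 2 of the Asic3-null label (31) and replicate 3 of the WT label (30). The cause of these changes was not tested. Slfn1, Slfn3, Slfn5, Slfn8 and Slfn9 rest on few reads, at most 31 a library.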
